A study of Mus musculus with 30 samples.

Results

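The retinal pigment epithelium (RPE) was collected at P25, for 6 libraries of B6 WT (C57BL/6) and 6 of *Mertk* -/-V1 mice, and the labels number the biological replicates of each genotype from 1 to 6. Replicates 1 to 3 of both genotypes (6 libraries) were compared with replicates 4 to 6 of both (6 libraries), with genotype as a term, so 12 of the 30 samples of the series entered the comparison. The labels give no collection date, litter or sequencing run for these numbers, and the 2 sets are therefore named here only by their replicate numbers. B6 WT mice were C57BL/6J. *Mertk* -/-V1 mice lack exon 17 of *Mertk*, retain a neomycin cassette, and were derived from 129P2 embryonic stem cells and then backcrossed to C57BL/6J, and they keep a 129P2 stretch around *Mertk*. The other 6 RPE libraries, 3 each of *Mertk* -/-V2 and *Mertk* -/-V3, carry only the numbers 1 to 3 and were left out of the main test. Reads were paired and 150 bp long. "Higher" and "lower" below mean higher or lower in replicates 1 to 3 than in replicates 4 to 6.

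The RPE is a single pigmented layer between the photoreceptors and the choroid that recycles retinal for the visual pigments, takes up shed outer segment tips and supplies the outer retina with fuel. It was obtained by opening the eye, leaving the posterior eyecup in an RNA stabilizing solution and agitating it so that the RPE came loose, and such a suspension can hold pieces of the neural retina in front of it (rods, cones, interneurons, ganglion cells and Müller glia) and of the choroid behind it (endothelium, pericytes, fibroblasts, melanocytes and macrophages). Cells of the anterior eye, such as lens fibres, corneal and conjunctival epithelium and the extraocular muscles, express genes that RPE does not use. A bulk library mixes all of these, and fewer cells of a type and less RNA per cell cannot be told apart in it.

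*Mertk*, the target of the deletion, matched the labels in every library. It had 3291, 3924 and 3381 in replicates 1 to 3 of B6 WT and 3169, 2638 and 2811 in replicates 4 to 6. For *Mertk*, the *Mertk* -/-V1 values were 990, 1021 and 1717 in replicates 1 to 3 and 1294, 1120 and 919 in replicates 4 to 6, in normalised counts (reads on a gene divided by a size factor for the library), and every *Mertk* -/-V1 library lay below every B6 WT library. *Mertk* itself gave a log2 fold change of 0.21, adjusted p = 0.232 between the replicate sets. All 12 libraries carried the Y-linked *Ddx3y* at 1974 to 2738 normalised counts and *Xist* at 10.9 to 53.1, so the sets did not differ in sex. Replicates 1 to 3 were sequenced more deeply, with 23417838 to 34124049 reads on genes against 14137666 to 20779930, without overlap (two-sided exact permutation test within genotype, p = 0.005, the smallest the design allows; adjusted p = 0.015 over 3 measures). The share of reads on the 10 most read genes of a library was also higher in replicates 1 to 3. Its mean was 9.12% against 7.62% (exact permutation p = 0.01, adjusted p = 0.015). The number of genes with a read did not pass this test (27720 ± 556 against 27539 ± 877, SD, n = 6 each, exact permutation p = 0.62). No 2 of the 18 RPE libraries were copies of one another.

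Of 18795 genes with a mean of at least 10 normalised counts, 4101 (21.8%) were higher and 3565 (19.0%) lower in replicates 1 to 3 at an adjusted p under 0.05 (limma, Benjamini-Hochberg). With the study's fold threshold added (2.38-fold either way), 371 genes were higher (1.97% of those tested) and 1381 lower (7.35%). These are called DEGs below. All 1752 DEGs had the same sign within B6 WT and within *Mertk* -/-V1. In 1020 of them the libraries of the sets did not overlap in either genotype. The DEGs were picked on these same values, which favours both counts, so neither is separate support. Tested within B6 WT, in a fit of all 12 libraries with a shared estimate of the spread, 4 genes were DEGs. Over all genes, sets apart in this way were found for 10.2% on the higher and 8.72% on the lower side. Counts of list members below are read against these shares of all genes. The median log2 fold change of all genes was 0.01.

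The libraries numbered 5 and 6 stood apart from the rest. On the first principal component, which held 61.5% of the variance, replicates 1 to 3 lay between -82.2 and -35.1, replicate 4 at -19.2 in B6 WT and 0.6 in *Mertk* -/-V1, and replicates 5 and 6 at 54.1 and 46.1 in B6 WT and at 115 and 99.0 in *Mertk* -/-V1. Replicate 4 thus lay between the others in both genotypes. When both libraries numbered 4 were left out, 2737 genes were DEGs. When those numbered 5 and 6 were left out, which leaves 1 library per genotype in the second set and assumes that it varies as the others do, 15 genes were DEGs and 16 passed the adjusted p. The choice of these fits was made after the data had been seen. With the mean log2 level of the rod genes as a covariate, 13 genes were DEGs. That level itself moved with the replicate sets, so this fit could not cleanly separate set from rod level. The part of rod content in the set difference was not tested. Counts of list members given below are those of all 12 libraries. The median without libraries 5 and 6 stands beside some of them. It is not given for the stress lists and several others. In that fit no member of any list passed, except 4 mitochondrially encoded genes.

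**Figure D1:**
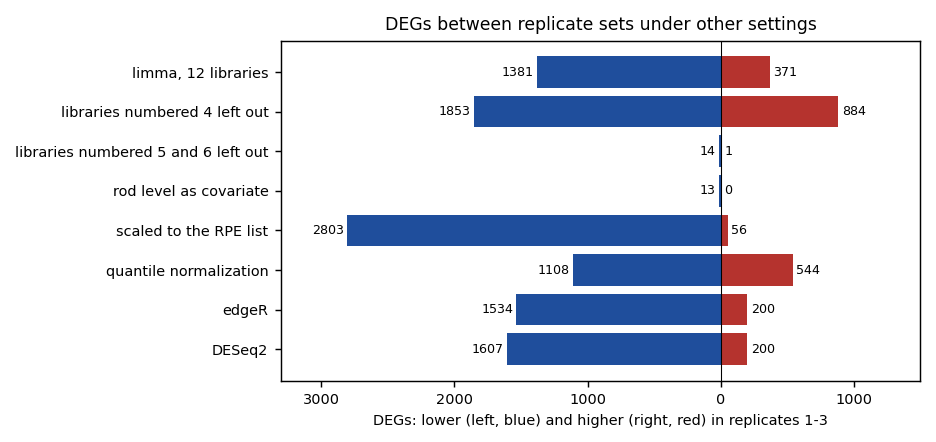
Number of genes lower (left) and higher (right) in replicates 1 to 3 (adjusted p below 0.05, 2.38-fold or more), for the fit of all 12 libraries and 7 other settings. In the setting with the rod level as a covariate, that level itself moved with the sets. The counts fell from 1381 and 371 to 14 and 1 when libraries 5 and 6 of both genotypes were left out, and to 13 and 0 with the rod level as a covariate.

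Genes of every neuronal class of the retina were lower in replicates 1 to 3, with list medians of -1.84 to -2.41 on the log2 scale, while genes of erythroid cells, lens, skeletal muscle and the cell cycle were higher by 1.40 to 1.96, and RPE genes by 0.64. Medians of the choroid, clock and stress lists lay between -0.38 and 0.53. Dividing each library by its RPE list level instead lowered the fold of every gene by the same amount and moved the median of all genes to -0.56. Folds and list medians under that scaling are therefore read against -0.56.

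**Figure D2:**
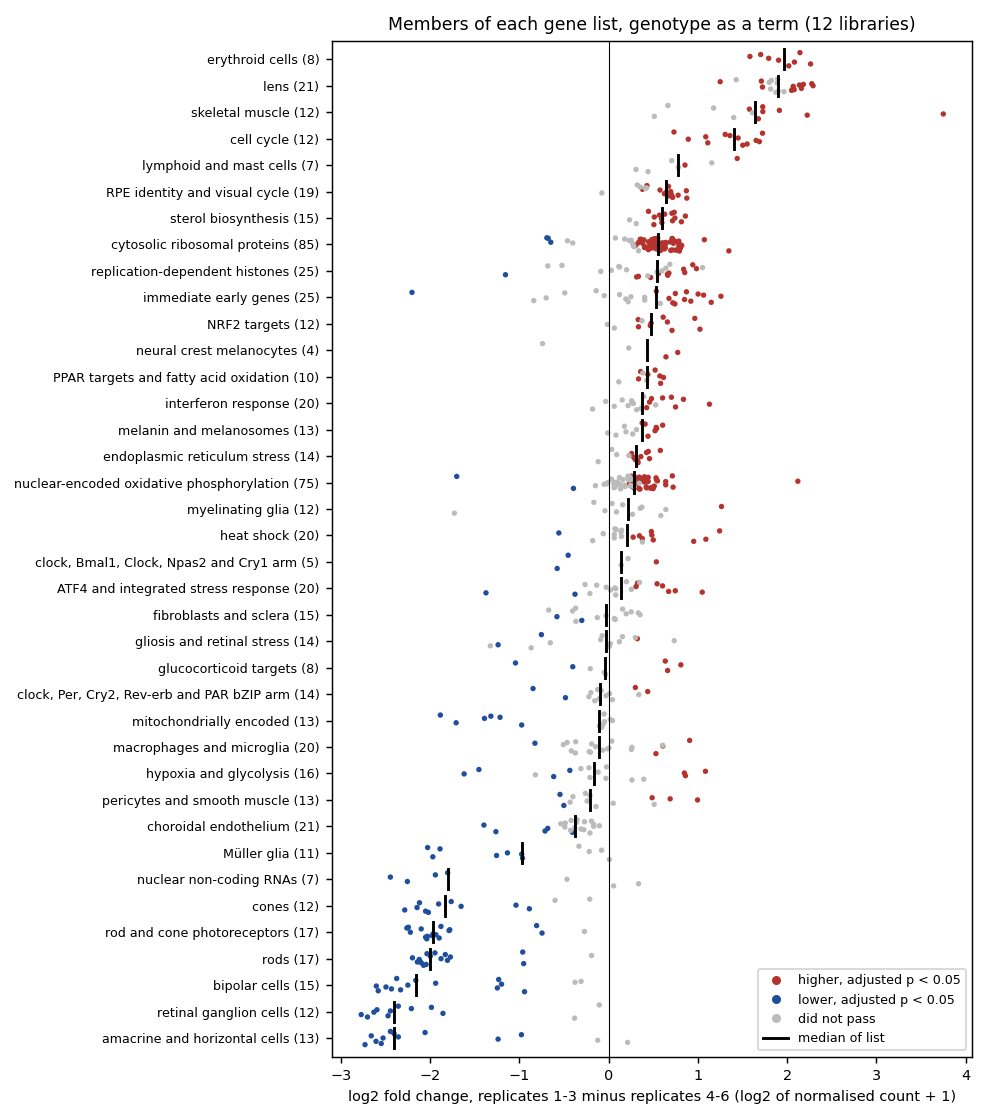
Each point is a gene of the list named on the left (number of genes tested in brackets), placed at its log2 fold change between replicates 1 to 3 and 4 to 6 with genotype as a term, red or blue where the adjusted p was under 0.05 and grey where it was not; black bars are list medians. Medians ran from -2.41 in amacrine and horizontal cells to 1.96 in erythroid cells, and those between 0 and 0.56 turned negative when libraries were scaled to the RPE list.

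Rods, the photoreceptors of dim light, turn light into a signal through transducin and a phosphodiesterase that lowers cyclic GMP and so lets cation channels close. Of 17 rod genes, 16 were lower and 0 higher (background 19.0% lower), 14 of them DEGs (background 7.35%). In 14 the sets did not overlap in either genotype (background 8.72%). The median was -1.999 (-1.63 within B6 WT and -2.26 within *Mertk* -/-V1; -0.79 without libraries 5 and 6). *Sag*, the arrestin of rods (GRCm38 chr1:87803680-87845158), had 1946, 6879 and 5340 in replicates 1 to 3 of B6 WT and 7650, 24200 and 19005 in replicates 4 to 6. For *Sag*, the *Mertk* -/-V1 values were 4568, 3156 and 3489 in replicates 1 to 3 and 7906, 38463 and 31560 in replicates 4 to 6. Every library of replicates 4 to 6 lay above every library of replicates 1 to 3 of its genotype, replicate 2 of B6 WT was close to replicate 4, and replicates 5 and 6 of *Mertk* -/-V1 were the highest of all (log2 fold change -2.20 ± 0.44 (SE), adjusted p = 0.00735). The channel subunit *Cnga1* (-2.12, adjusted p = 0.0077) and the phosphodiesterase subunit *Pde6a* (-2.14, adjusted p = 0.00749) moved by as much. *Rom1* (-0.96) and *Gnb1* (-0.95) fell less, and *Slc24a1* gave -0.20 and did not pass.

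Over the rod list as a whole, the summed level was 74923, 179685 and 152002 in replicates 1 to 3 of B6 WT and 186497, 418635 and 368282 in replicates 4 to 6. In *Mertk* -/-V1 it was 134569, 100688 and 115674 and 181793, 1008387 and 602914. Replicates 5 and 6 were the highest in both genotypes, and replicate 4 lay just above replicates 1 to 3 of its own genotype.

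Among 12 genes of cones, the photoreceptors of colour and daylight vision, 10 were lower, 8 of them DEGs, and none was higher. The background was 19.0% lower and 7.35% DEGs. The median was -1.84 (-1.38 within B6 WT, -2.35 within *Mertk* -/-V1 and -0.58 without libraries 5 and 6). Only 3 had sets that did not overlap in either genotype (background 8.72%), against 14 of 17 rod genes. *Opn1sw*, the short-wavelength opsin (chr6:29376671-29388468), had 256, 1531 and 848 in replicates 1 to 3 of B6 WT and 668, 4040 and 2436 in replicates 4 to 6. For *Opn1sw*, the *Mertk* -/-V1 values were 920, 469 and 456 in replicates 1 to 3 and 1501, 5104 and 5835 in replicates 4 to 6, and in B6 WT replicate 4 lay below replicates 2 and 3 (log2 fold change -2.02 ± 0.56 (SE), adjusted p = 0.0157). *Arr3*, cone arrestin, had 118, 348 and 256 in replicates 1 to 3 of B6 WT and 389, 1135 and 1039 in replicates 4 to 6. For *Arr3*, the *Mertk* -/-V1 values were 241, 198 and 302 in replicates 1 to 3 and 628, 2605 and 2764 in replicates 4 to 6, with no overlap in either genotype (-2.29, adjusted p = 0.00725). The transducin subunit *Gnb3* (-2.15, adjusted p = 0.00772) and the channel subunit *Cnga3* (-2.12, adjusted p = 0.0125) were lower too. *Kcne2* (-0.60) and *Thrb* (-0.21) did not pass.

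Of the genes that rods and cones share, 16 of 17 were lower (background 19.0%) and 14 were DEGs (background 7.35%). In 11 the sets did not overlap in either genotype (background 8.72%), and the median was -1.97 (-0.76 without libraries 5 and 6). *Crx*, the homeobox factor that drives photoreceptor genes (chr7:15865947-15879968), had 719, 2319 and 1935 in replicates 1 to 3 of B6 WT and 2703, 7085 and 6003 in replicates 4 to 6. For *Crx*, the *Mertk* -/-V1 values were 1910, 1282 and 1666 in replicates 1 to 3 and 2849, 15184 and 12788 in replicates 4 to 6 (log2 fold change -2.04 ± 0.44 (SE), adjusted p = 0.0077). The matrix proteoglycans *Impg1* (-2.26, adjusted p = 0.00768) and *Impg2* (-2.24, adjusted p = 0.00844) were lower by as much. *Abca4*, the retinal exporter of the outer segment that RPE also expresses, gave -0.28 and did not pass.

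Photoreceptor promoters often carry the letters TAATCC, which CRX binds. In RefSeq windows of 300 bases (250 before to 50 after a start, GRCm38.p6), TAATCC or its reverse complement stood in 5 of 13 windows of 12 rod genes, 2 of 11 windows of 8 cone genes and 5 of 15 windows of 12 shared genes, and in 7.06% of all 32851 windows. A match describes the letters and not a bound site. The windows of *Sag* (chr1:87803430-87803729, plus strand) and *Crx* (chr7:15879906-15880205, minus strand) are given, 5′ to 3′, as photoreceptor genes whose sets did not overlap and whose windows hold the letters, with the matches in capitals.
Sag: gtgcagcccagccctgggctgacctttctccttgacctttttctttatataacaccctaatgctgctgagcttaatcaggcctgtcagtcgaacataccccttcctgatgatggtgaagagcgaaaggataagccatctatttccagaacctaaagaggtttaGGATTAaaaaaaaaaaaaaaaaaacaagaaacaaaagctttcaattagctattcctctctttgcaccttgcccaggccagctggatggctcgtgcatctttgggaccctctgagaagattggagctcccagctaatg
Crx: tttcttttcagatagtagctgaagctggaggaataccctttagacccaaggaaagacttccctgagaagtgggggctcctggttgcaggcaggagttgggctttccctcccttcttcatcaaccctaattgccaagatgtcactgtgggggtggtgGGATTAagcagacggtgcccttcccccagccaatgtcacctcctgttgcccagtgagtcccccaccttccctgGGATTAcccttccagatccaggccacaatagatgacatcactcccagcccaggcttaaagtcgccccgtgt

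Neurons of the inner retina carry photoreceptor signals towards the brain, and most of their genes were lower. Bipolar cells, the second-order neurons, had 13 of 15 genes lower (background 19.0%) and 9 DEGs (background 7.35%). The median was -2.16 (-0.92 without libraries 5 and 6). *Grm6*, the glutamate receptor of ON bipolar cells, had 63.4, 334 and 209 in replicates 1 to 3 of B6 WT and 340, 1126 and 777 in replicates 4 to 6. For *Grm6*, the *Mertk* -/-V1 values were 132, 137 and 232 in replicates 1 to 3 and 602, 2076 and 2393 in replicates 4 to 6 (log2 fold change -2.58 ± 0.49 (SE), adjusted p = 0.00725). *Isl1* (-2.60, adjusted p = 0.00761) and *Cabp5* (-2.496, adjusted p = 0.00725) moved as far, whereas *Prkca*, a kinase that marks rod bipolar cells but is used by other cells as well, fell by less (-0.94, adjusted p = 0.0107).

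Amacrine and horizontal cells, the lateral interneurons, had 11 of 13 genes lower (background 19.0%) and 9 DEGs (background 7.35%). Their median was -2.41 (-1.12 without libraries 5 and 6). *Gad1*, which makes GABA (chr2:70553072-70602014), had 111, 467 and 431 in replicates 1 to 3 of B6 WT and 620, 2010 and 1391 in replicates 4 to 6. For *Gad1*, the *Mertk* -/-V1 values were 262, 293 and 292 in replicates 1 to 3 and 868, 6078 and 4758 in replicates 4 to 6, so replicates 5 and 6 of *Mertk* -/-V1 held more than any other library (log2 fold change -2.73 ± 0.54 (SE), adjusted p = 0.00733). *Gad2* (-2.55, adjusted p = 0.00733), the vesicular GABA transporter *Slc32a1* (-2.61, adjusted p = 0.0077) and calretinin, *Calb2* (-2.53, adjusted p = 0.0077), were lower with it.

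Retinal ganglion cells, whose axons form the optic nerve, had 10 of 12 genes lower (background 19.0%), all 10 of them DEGs (background 7.35%). Their median was -2.40 (-1.19 without libraries 5 and 6). *Pou4f2*, a factor of ganglion cell fate, had 3.73, 5.86 and 12.6 in replicates 1 to 3 of B6 WT and 16.7, 57.7 and 37.7 in replicates 4 to 6. For *Pou4f2*, the *Mertk* -/-V1 values were 12.8, 7.58 and 15 in replicates 1 to 3 and 36.2, 437 and 130 in replicates 4 to 6 (log2 fold change -2.77 ± 0.56 (SE), adjusted p = 0.00736). The neurofilament *Nefl* had 140, 499 and 495 in replicates 1 to 3 of B6 WT and 755, 1892 and 1562 in replicates 4 to 6. For *Nefl*, the *Mertk* -/-V1 values were 361, 437 and 333 in replicates 1 to 3 and 960, 11158 and 4360 in replicates 4 to 6, where replicate 5 of *Mertk* -/-V1 stood highest (-2.63, adjusted p = 0.0076). The glutamate transporter *Slc17a6* followed (-2.70, adjusted p = 0.00749). *Rbpms*, the first gene of this list, gave -0.38, adjusted p = 0.107 and did not pass, and nor did *Opn4* (-0.11).

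Müller glia span the retina and keep its glutamate, potassium and water in balance. Of their 11 genes, 7 were lower (background 19.0%) and none higher, 4 of them DEGs (background 7.35%). The median was -0.97 (-0.83 within B6 WT, -1.12 within *Mertk* -/-V1 and -0.57 without libraries 5 and 6). *Glul*, glutamine synthetase, the first gene of the list and one that RPE also expresses, had 51628, 53027 and 54279 in replicates 1 to 3 of B6 WT and 53759, 55733 and 58855 in replicates 4 to 6. For *Glul*, the *Mertk* -/-V1 values were 48525, 50403 and 42118 in replicates 1 to 3 and 45580, 40065 and 46113 in replicates 4 to 6, and the sets overlapped (log2 fold change 0.01 ± 0.10 (SE), adjusted p = 0.96; -0.34 after quantile normalization and -0.56 when scaled to the RPE list, both past the threshold). *Kcnj10*, the potassium channel, had 54.1, 122 and 76.8 in replicates 1 to 3 of B6 WT and 265, 503 and 344 in replicates 4 to 6. For *Kcnj10*, the *Mertk* -/-V1 values were 237, 256 and 115 in replicates 1 to 3 and 233, 1290 and 968 in replicates 4 to 6 (-1.97, adjusted p = 0.00735). *Gpr37* (-2.03, adjusted p = 0.00735) and *Crym* (-1.89, adjusted p = 0.00889) were lower by as much, the glutamate transporter *Slc1a3* (-1.13, adjusted p = 0.00735) and the water channel *Aqp4* (-0.97, adjusted p = 0.00778) by less. *Vim* (-0.08), *Dkk3* (-0.22) and *Rax* (-0.33) did not pass.

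Genes of gliosis and retinal stress were mostly not past the threshold, with 1 of 14 higher, 2 lower and a median of -0.03. Both shares were below the background of 21.8% higher and 19.0% lower. *Gfap*, the filament that reactive glia induce, had 515, 1094 and 883 in replicates 1 to 3 of B6 WT and 2424, 636 and 1540 in replicates 4 to 6. For *Gfap*, the *Mertk* -/-V1 values were 3195, 2312 and 526 in replicates 1 to 3 and 2521, 3425 and 3504 in replicates 4 to 6, and both sets spanned a wide range (log2 fold change -0.87 ± 0.43 (SE), adjusted p = 0.123). The trophic factor *Fgf2* had 203, 211 and 220 in replicates 1 to 3 of B6 WT and 303, 256 and 308 in replicates 4 to 6. For *Fgf2*, the *Mertk* -/-V1 values were 290, 342 and 263 in replicates 1 to 3 and 378, 1764 and 2699 in replicates 4 to 6, so the largest values stood in replicates 5 and 6 of *Mertk* -/-V1 (-1.24, adjusted p = 0.0379). Ceruloplasmin, *Cp*, was lower (-0.75, adjusted p = 0.0419) and *Stat3* higher (0.32, adjusted p = 0.013; -0.25 when scaled to the RPE list). Endothelin 2, *Edn2*, a signal of injured photoreceptors, was chosen after its values were seen. It had 33.6, 10.6 and 24.3 in replicates 1 to 3 of B6 WT and 22.2, 3.93 and 17.3 in replicates 4 to 6. For *Edn2*, the *Mertk* -/-V1 values were 12.8, 25.6 and 26.1 in replicates 1 to 3 and 44.7, 298 and 878 in replicates 4 to 6, and did not pass over both genotypes (-1.33, adjusted p = 0.241). Within *Mertk* -/-V1 it gave -3.41 (adjusted p = 0.0271) and within B6 WT 0.76 (adjusted p = 0.623), and the interaction did not pass (adjusted p = 0.72).

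Of 12 genes of myelinating glia, 1, *Mal*, was higher (1.26, adjusted p = 0.00779) and none lower, below the background of 21.8% and 19.0%. *Mbp*, myelin basic protein, had 5441, 3833 and 3562 in replicates 1 to 3 of B6 WT and 21997, 2145 and 4069 in replicates 4 to 6. For *Mbp*, the *Mertk* -/-V1 values were 24037, 11746 and 4440 in replicates 1 to 3 and 8666, 1922 and 2560 in replicates 4 to 6. Single libraries of either set were high, the sets overlapped and the gene did not pass (log2 fold change 0.58 ± 0.65 (SE)).

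The choroid supplies the RPE with blood through a dense capillary bed. Of 21 genes of its endothelium, 5 were lower and 0 higher and 2 were DEGs, near the background of 19.0% lower and 7.35% DEGs, with a median of -0.38 (-0.71 within B6 WT and -0.02 within *Mertk* -/-V1; -0.42 without libraries 5 and 6). *Cdh5*, the endothelial cadherin, had 336, 440 and 416 in replicates 1 to 3 of B6 WT and 562, 771 and 546 in replicates 4 to 6. For *Cdh5*, the *Mertk* -/-V1 values were 784, 565 and 607 in replicates 1 to 3 and 792, 446 and 473 in replicates 4 to 6, and did not pass (log2 fold change -0.21 ± 0.20 (SE), adjusted p = 0.42). *Kdr*, the main VEGF receptor, which retinal vessels and neurons also use, had 505, 918 and 777 in replicates 1 to 3 of B6 WT and 1040, 2223 and 1490 in replicates 4 to 6. For *Kdr*, the *Mertk* -/-V1 values were 998, 962 and 1042 in replicates 1 to 3 and 1548, 3053 and 4264 in replicates 4 to 6, with no overlap in either genotype (-1.26, adjusted p = 0.00735). *Flt1* (-0.71, adjusted p = 0.00736), *Esam* (-0.68, adjusted p = 0.044) and *Pecam1* (-0.41, adjusted p = 0.0472) were lower, as was *Sox17* (-1.40). The choriocapillaris gene *Plvap* gave -0.17, *Vwf* -0.19 and *Tie1* -0.28, and none of the 3 passed.

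Mural cells had 3 genes higher and 2 lower of 13, near the background of 21.8% and 19.0% (median -0.21, 0.07 within *Mertk* -/-V1). *Pdgfrb* gave -0.14, adjusted p = 0.424, *Notch3* (0.69, adjusted p = 0.023) and *Des* (1.00, adjusted p = 0.0465) were higher and *Mylk* lower (-0.55, adjusted p = 0.0408). *Des*, desmin, is also a gene of skeletal muscle. Fibroblasts and sclera had 0 genes higher and 2 lower of 15 (median -0.03), below the background of 21.8% and 19.0%, and the 2 were *Pdgfra* (-0.58, adjusted p = 0.00882) and *Col1a2* (-0.30, adjusted p = 0.0434), while *Col1a1* did not pass (-0.37, adjusted p = 0.0607). Of 4 genes of choroidal melanocytes, *Sox10* (0.64, adjusted p = 0.0315) and *Kit* (0.77, adjusted p = 0.0245) were higher. The other 2 did not pass, and the lowest fold was -0.74. The median was 0.43, with 0.05 within B6 WT and 0.81 within *Mertk* -/-V1.

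Macrophages and microglia had 3 genes higher and 1 lower of 20, with a median of -0.11, and neither share was above the background of 21.8% higher and 19.0% lower. *Csf1r*, the receptor they need for survival, had 7682, 10101 and 8316 in replicates 1 to 3 of B6 WT and 6988, 6146 and 7370 in replicates 4 to 6. For *Csf1r*, the *Mertk* -/-V1 values were 6406, 7243 and 8518 in replicates 1 to 3 and 6751, 3873 and 3404 in replicates 4 to 6 (log2 fold change 0.53 ± 0.16 (SE), adjusted p = 0.0235; -0.04 when scaled to the RPE list). *Itgam* was higher as well (0.91, adjusted p = 0.0269). *P2ry12*, a gene of resident microglia, was lower (-0.83). Lymphoid and mast cell genes were sparse, at summed levels of 58.5 to 245 normalised counts, and *Cd79a* gave 0.44, adjusted p = 0.304.

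RPE genes were higher in replicates 1 to 3, by less than the retinal genes were lower. Of 19 genes of RPE identity and the visual cycle, 14 were higher and none lower (background 21.8% higher), none of them a DEG. In 8 the sets did not overlap in either genotype (background 10.2%). The median was 0.64 (0.33 within B6 WT and 0.90 within *Mertk* -/-V1; 0.22 without libraries 5 and 6). *Rpe65*, the isomerase of the visual cycle (chr3:159599175-159625321), had 85451, 105278 and 87327 in replicates 1 to 3 of B6 WT and 80332, 58354 and 68265 in replicates 4 to 6. For *Rpe65*, the *Mertk* -/-V1 values were 45537, 50759 and 63795 in replicates 1 to 3 and 32949, 21757 and 13235 in replicates 4 to 6. In B6 WT the closest libraries of the 2 sets were replicates 1 and 4, and in *Mertk* -/-V1 replicates 5 and 6 were lowest (log2 fold change 0.88 ± 0.24 (SE), adjusted p = 0.0146). *Slc16a8*, the lactate transporter of the basal membrane, had 20053, 27043 and 22665 in replicates 1 to 3 of B6 WT and 16357, 12667 and 15288 in replicates 4 to 6. For *Slc16a8*, the *Mertk* -/-V1 values were 16186, 17110 and 21083 in replicates 1 to 3 and 14384, 7657 and 5505 in replicates 4 to 6 (0.87, adjusted p = 0.00907). The retinol dehydrogenase *Rdh10* (0.78, adjusted p = 0.0101), the retinyl ester synthase *Lrat* (0.72, adjusted p = 0.0238) and transthyretin, *Ttr* (0.69, adjusted p = 0.0288), were higher. The basolateral channel *Best1* gave -0.08 and did not pass.

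Melanin and melanosome genes, which RPE and choroidal melanocytes share, had 7 of 13 genes higher and none lower (background 21.8% and 19.0%). Their median was 0.38 (-0.19 when scaled to the RPE list), with 0.03 within B6 WT and 0.68 within *Mertk* -/-V1. *Tyr*, tyrosinase, had 12222, 12728 and 12875 in replicates 1 to 3 of B6 WT and 12856, 11916 and 12411 in replicates 4 to 6. For *Tyr*, the *Mertk* -/-V1 values were 12082, 13668 and 12971 in replicates 1 to 3 and 9202, 6616 and 5930 in replicates 4 to 6, so the B6 WT sets overlapped and the *Mertk* -/-V1 sets did not (log2 fold change 0.44 ± 0.16 (SE), adjusted p = 0.0402; -0.13 when scaled to the RPE list). *Rab27a*, which tethers melanosomes, was higher (0.61, adjusted p = 0.0161), as were *Gpr143* (0.54, adjusted p = 0.0208; -0.03 when scaled to the RPE list) and *Slc24a5* (0.53, adjusted p = 0.0143; -0.03). *Pmel* gave -0.01.

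**Figure D3:**
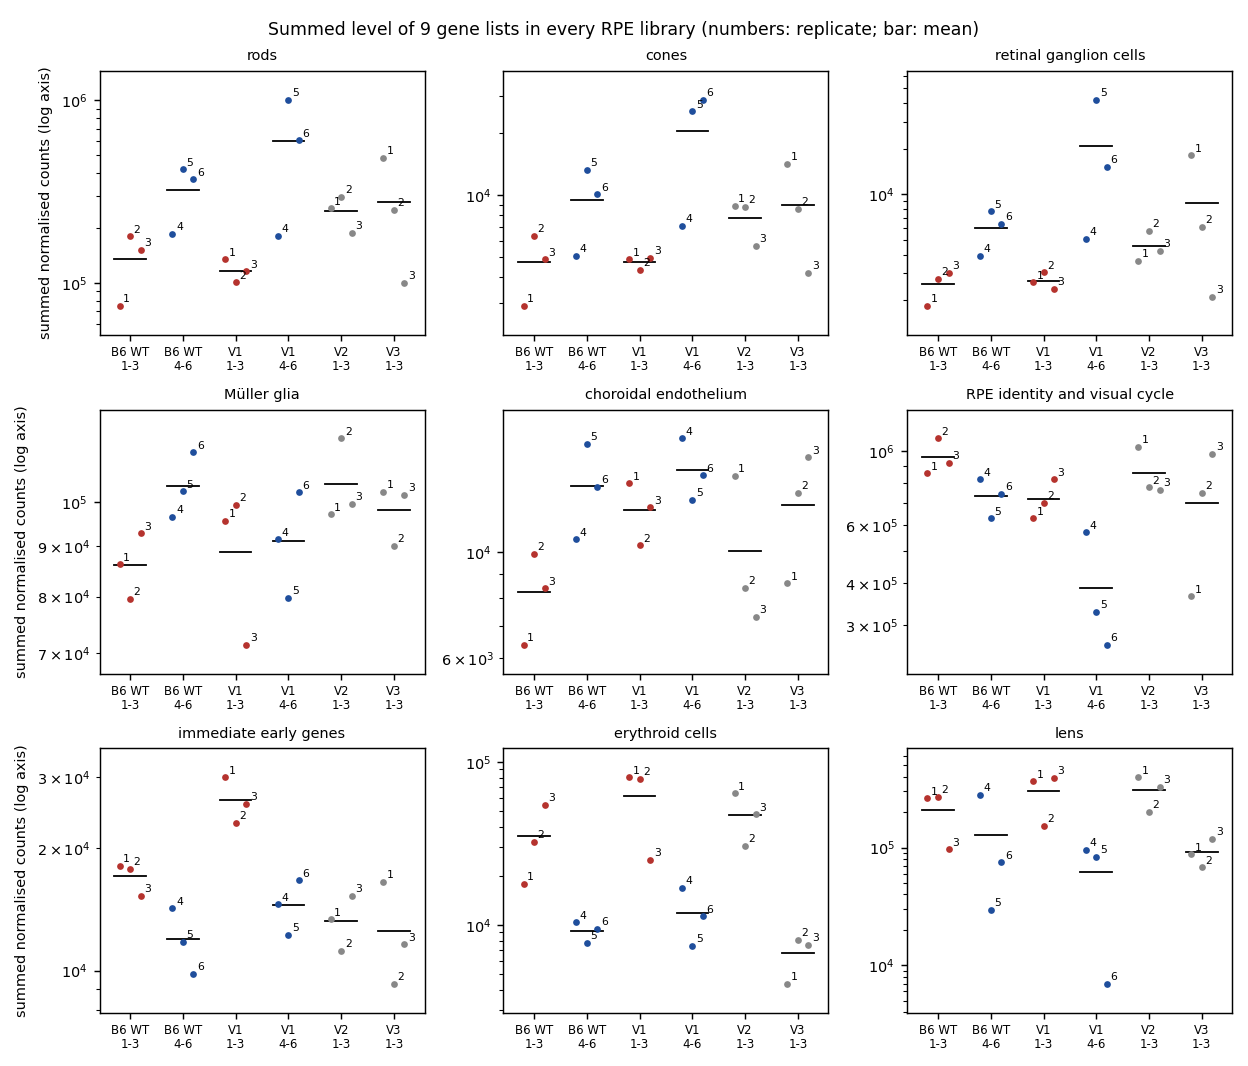
Summed normalised counts of 9 gene lists (log axis) in all 18 RPE libraries, each point marked with its replicate number and bars at group means; red is replicates 1 to 3, blue replicates 4 to 6, and grey *Mertk* -/-V2 and *Mertk* -/-V3, which were not tested. Replicates 5 and 6 of *Mertk* -/-V1 were highest in rods (1008387 and 602914) and lowest in RPE genes (328364 and 261611), and replicate 4 of B6 WT stayed with replicates 1 to 3 in lens genes (279509).

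Immediate early genes, which cells switch on within minutes of a stimulus or of tissue handling, were partly higher (background 21.8% higher and 19.0% lower). Of 25, 12 were higher and 1 lower, with a median of 0.53 (-0.03 when scaled to the RPE list; 0.51 within B6 WT and 0.71 within *Mertk* -/-V1). *Fos* had 212, 441 and 262 in replicates 1 to 3 of B6 WT and 159, 221 and 144 in replicates 4 to 6. For *Fos*, the *Mertk* -/-V1 values were 598, 518 and 691 in replicates 1 to 3 and 229, 312 and 650 in replicates 4 to 6, so replicate 5 of B6 WT and replicate 6 of *Mertk* -/-V1 overlapped with the other set (log2 fold change 0.74 ± 0.25 (SE), adjusted p = 0.0332). The phosphatase *Dusp1* had 778, 622 and 705 in replicates 1 to 3 of B6 WT and 527, 355 and 309 in replicates 4 to 6. For *Dusp1*, the *Mertk* -/-V1 values were 1032, 987 and 1626 in replicates 1 to 3 and 553, 266 and 351 in replicates 4 to 6, without overlap (1.26, adjusted p = 0.00725). *Junb* (1.15, adjusted p = 0.00733), the decay factor *Zfp36* (1.06, adjusted p = 0.00733) and *Egr1* (0.92, adjusted p = 0.0321) were higher. The exception, *Npas4*, is a factor of active neurons and was lower (-2.20, adjusted p = 0.00733).

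Heat shock genes, the chaperones of unfolded proteins, had 9 of 20 higher and 1 lower (background 21.8% and 19.0%). Their median was 0.21 (-0.36 when scaled to the RPE list). *Hspa1a* had 1003, 649 and 680 in replicates 1 to 3 of B6 WT and 670, 595 and 396 in replicates 4 to 6. For *Hspa1a*, the *Mertk* -/-V1 values were 779, 610 and 670 in replicates 1 to 3 and 687, 460 and 587 in replicates 4 to 6, and did not pass (log2 fold change 0.38 ± 0.16 (SE), adjusted p = 0.0763). Its near-identical neighbour *Hspa1b*, with which reads may be shared, had 4246, 3294 and 3116 in replicates 1 to 3 of B6 WT and 2496, 1933 and 1169 in replicates 4 to 6. For *Hspa1b*, the *Mertk* -/-V1 values were 4184, 2911 and 3242 in replicates 1 to 3 and 2482, 1290 and 1806 in replicates 4 to 6 (0.95, adjusted p = 0.00745). *Hspb1* (1.09, adjusted p = 0.0117) and *Cryab* (1.24, adjusted p = 0.0323) were higher, and *Cryab* is a lens crystallin as well. *Hsp90aa1* gave 0.06, *Hsph1* -0.18 and *Dnaja1* 0.06, and none of these passed.

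In the endoplasmic reticulum stress list, 10 of 14 genes were higher and none lower (background 21.8% and 19.0%). The amounts were small (median 0.31, -0.25 when scaled to the RPE list). *Hspa5*, the main chaperone of that compartment, had 20144, 19535 and 19371 in replicates 1 to 3 of B6 WT and 18331, 15442 and 15499 in replicates 4 to 6. For *Hspa5*, the *Mertk* -/-V1 values were 16611, 18748 and 17606 in replicates 1 to 3 and 15218, 12255 and 12967 in replicates 4 to 6, with no overlap (log2 fold change 0.33 ± 0.08 (SE), adjusted p = 0.011; -0.24 when scaled to the RPE list). *Edem1* (0.58, adjusted p = 0.00733), *Sdf2l1* (0.46, adjusted p = 0.0128; -0.11) and *Dnajc3* (0.44, adjusted p = 0.0114; -0.12) were higher. Of 20 genes of ATF4 and the integrated stress response, 7 were higher and 2 lower (background 21.8% and 19.0%). Their median was 0.14 (-0.43 when scaled to the RPE list). *Atf4* gave 0.08, adjusted p = 0.551. *Asns*, asparagine synthetase, was lower (-1.37, adjusted p = 0.01), with 115, 186 and 111 against 212, 839 and 512 in *Mertk* -/-V1, while *Chac1* (1.05, adjusted p = 0.00821) and *Phgdh* (0.75, adjusted p = 0.0077) were higher.

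For NRF2 targets and interferon genes the background was 21.8% higher and 19.0% lower. NRF2 targets, the antioxidant genes, had 9 of 12 higher and none lower (median 0.47, -0.10 when scaled to the RPE list). *Nqo1* had 5826, 5595 and 5217 in replicates 1 to 3 of B6 WT and 6089, 3626 and 4224 in replicates 4 to 6. For *Nqo1*, the *Mertk* -/-V1 values were 3902, 3438 and 3848 in replicates 1 to 3 and 2493, 1358 and 1451 in replicates 4 to 6, with replicate 4 of B6 WT above replicates 1 to 3 (log2 fold change 0.71 ± 0.20 (SE), adjusted p = 0.0161). *Hmox1* (1.02, adjusted p = 0.0385), *Gsta4* (0.96, adjusted p = 0.0126) and *Osgin1* (0.66, adjusted p = 0.0273) were higher. Interferon response genes had 8 of 20 higher and none lower (median 0.38, -0.19 when scaled to the RPE list), among them *Rsad2* (1.13, adjusted p = 0.00767), *Zbp1* (0.84, adjusted p = 0.0101) and *Isg15* (0.75, adjusted p = 0.0133), whereas *Ifit1* gave 0.31, adjusted p = 0.179.

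Glucocorticoid targets were split, with 3 higher and 2 lower of 8 (median -0.04), against a background of 21.8% and 19.0%. The chaperone *Fkbp5*, their most used marker, had 631, 469 and 461 in replicates 1 to 3 of B6 WT and 538, 414 and 391 in replicates 4 to 6. For *Fkbp5*, the *Mertk* -/-V1 values were 513, 452 and 417 in replicates 1 to 3 and 445, 611 and 642 in replicates 4 to 6 (-0.03, adjusted p = 0.866). *Sgk1* (0.66, adjusted p = 0.0102) and *Mt1* (0.81, adjusted p = 0.00725) were higher and *Mt2* lower (-1.04, adjusted p = 0.0166). Hypoxia and glycolysis genes were split as well (3 higher and 4 lower of 16, against a background of 21.8% and 19.0%). *Vegfa* gave 0.26, adjusted p = 0.125, *Egln3* was higher (0.85, adjusted p = 0.0244), and *Hk2*, the hexokinase of photoreceptors, was lower (-1.45, adjusted p = 0.0118) with *Ankrd37* (-1.62, adjusted p = 0.0191).

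The circadian clock runs on a loop in which BMAL1 (*Arntl*) and CLOCK or NPAS2 drive *Per*, *Cry* and *Nr1d1*. The products of these genes then oppose BMAL1 and CLOCK or NPAS2, so the arms peak at different hours. The PAR bZIP genes *Dbp*, *Tef* and *Hlf* are driven by the same factors. Mice were kept on a cycle of 12 h light, and the hour of collection is not given in the sources used here. Of 14 genes of the *Per* arm, 2 were higher and 2 lower (median -0.10, -0.66 when scaled to the RPE list). Of 5 genes of the *Arntl* arm, 1 was higher and 2 lower. Their median was 0.14 (-0.43 when scaled to the RPE list, -0.0048 without libraries 5 and 6). The background was 21.8% higher and 19.0% lower, and the shares of the *Per* arm were below it.

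*Arntl* (chr7:113207465-113314126) had 832, 821 and 865 in replicates 1 to 3 of B6 WT and 1027, 1427 and 1240 in replicates 4 to 6. For *Arntl*, the *Mertk* -/-V1 values were 981, 923 and 766 in replicates 1 to 3 and 1008, 1401 and 1763 in replicates 4 to 6, with no overlap in either genotype (log2 fold change -0.58 ± 0.13 (SE), adjusted p = 0.00801). *Cry1* was lower (-0.45, adjusted p = 0.0291) and *Npas2* higher (0.53, adjusted p = 0.041; -0.03 when scaled to the RPE list), while *Clock* (0.14, adjusted p = 0.0747) and *Nfil3* (0.22, adjusted p = 0.171) did not pass. In the *Per* arm, *Per1* had 577, 753 and 760 in replicates 1 to 3 of B6 WT and 649, 1009 and 953 in replicates 4 to 6. For *Per1*, the *Mertk* -/-V1 values were 943, 966 and 1246 in replicates 1 to 3 and 799, 1237 and 1159 in replicates 4 to 6, and the sets overlapped (log2 fold change -0.16 ± 0.15 (SE), adjusted p = 0.427). *Nr1d1* had 1944, 2389 and 2267 in replicates 1 to 3 of B6 WT and 2129, 2583 and 2250 in replicates 4 to 6. For *Nr1d1*, the *Mertk* -/-V1 values were 2105, 1860 and 2447 in replicates 1 to 3 and 2119, 3294 and 2944 in replicates 4 to 6 (-0.22, adjusted p = 0.154). *Dbp*, the gene of widest daily swing in many tissues, had 2260, 3202 and 2583 in replicates 1 to 3 of B6 WT and 2000, 1974 and 2306 in replicates 4 to 6. For *Dbp*, the *Mertk* -/-V1 values were 2152, 2230 and 2775 in replicates 1 to 3 and 2273, 2085 and 1417 in replicates 4 to 6, and it narrowly did not pass, with an adjusted p that rounds to 0.05 (log2 fold change 0.34).

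*Per2* gave 0.04, adjusted p = 0.847, *Per3* -0.11, adjusted p = 0.508, *Nr1d2* -0.03, adjusted p = 0.844, *Ciart* -0.12, adjusted p = 0.593, *Hlf* -0.20, adjusted p = 0.11, *Tef* 0.01, adjusted p = 0.932 and *Bhlhe41* -0.08, adjusted p = 0.395. The genes of this arm that passed were *Usp2*, a deubiquitinase that neural tissue uses too (-0.85, adjusted p = 0.00934), *Cry2* (-0.48, adjusted p = 0.0195), *Bhlhe40* (0.44, adjusted p = 0.00725; -0.13 when scaled to the RPE list) and *Wee1* (0.30, adjusted p = 0.0183; -0.27). Genes that passed were thus found on both sides of 0 in each arm. Scaling to the RPE list lowers the fold of every gene by the same amount. Under it the 3 that were higher (*Npas2*, *Bhlhe40* and *Wee1*) turned negative but stayed above the median of all genes (-0.56).

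BMAL1 and CLOCK bind the E-box CACGTG, which reads the same on both strands. It stood in 5 of 13 windows of 11 genes of the *Per* arm and in 1 of 8 windows of 5 genes of the *Arntl* arm, against 7.15% of all windows. The window of *Cry1* (chr10:85185005-85185304, minus strand), a clock gene past the threshold whose window held it, is shown with the E-box in capitals.
Cry1: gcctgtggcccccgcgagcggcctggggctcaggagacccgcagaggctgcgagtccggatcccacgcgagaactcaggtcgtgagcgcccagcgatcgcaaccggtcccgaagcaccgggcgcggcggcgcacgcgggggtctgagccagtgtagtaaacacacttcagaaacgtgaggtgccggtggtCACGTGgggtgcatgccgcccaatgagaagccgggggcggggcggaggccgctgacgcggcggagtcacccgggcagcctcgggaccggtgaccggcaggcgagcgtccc

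**Figure D4:**
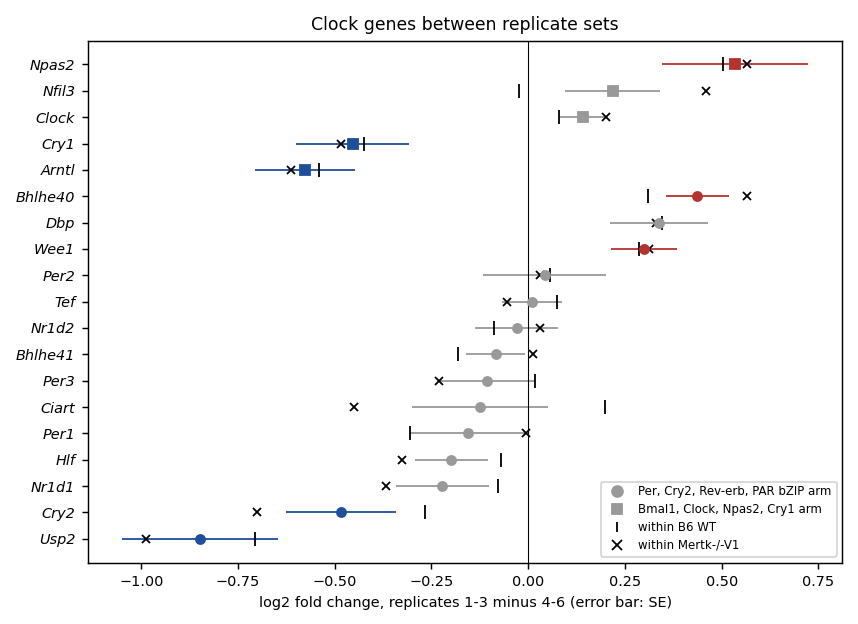
Log2 fold change between replicates 1 to 3 and 4 to 6 of 19 clock genes (points, with SE bars; circles are the *Per* arm and squares the *Arntl* arm; coloured where the adjusted p was under 0.05), with the values within B6 WT (ticks) and within *Mertk* -/-V1 (crosses). The 7 coloured genes ran from -0.85 (*Usp2*) to 0.53 (*Npas2*), with both signs in each arm. Scaled to the RPE list, which lowers every gene equally, *Npas2*, *Bhlhe40* and *Wee1* turned negative but stayed above the median of all genes (-0.56).

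Erythroid genes, which red blood cells and their precursors express, were higher in 8 of 8 cases, all DEGs (background 1.97%), with a median of 1.96 (1.76 within B6 WT and 2.15 within *Mertk* -/-V1). This list kept most of its size without libraries 5 and 6 (median 1.54), although none of its genes then passed. *Hbb-bs*, a beta globin (chr7:103826534-103828096), had 9915, 18277 and 31608 in replicates 1 to 3 of B6 WT and 6290, 4448 and 5403 in replicates 4 to 6. For *Hbb-bs*, the *Mertk* -/-V1 values were 45368, 45906 and 14731 in replicates 1 to 3 and 9328, 4268 and 6602 in replicates 4 to 6, without overlap in either genotype (log2 fold change 2.02 ± 0.35 (SE), adjusted p = 0.00724). *Alas2*, which starts haem synthesis in red cells, had 842, 1182 and 2286 in replicates 1 to 3 of B6 WT and 492, 404 and 504 in replicates 4 to 6. For *Alas2*, the *Mertk* -/-V1 values were 3546, 3354 and 1131 in replicates 1 to 3 and 846, 367 and 563 in replicates 4 to 6 (1.79, adjusted p = 0.00725). *Hbb-bt* (2.26, adjusted p = 0.00724), *Hba-a1* (2.08, adjusted p = 0.00724) and *Hba-a2* (1.90, adjusted p = 0.00736) were higher, and the globins of each pair are near-identical, so how their reads were divided is uncertain.

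Erythroid promoters are bound by GATA1, whose letters include AGATAA. This motif or its reverse complement stood in 3 of 6 windows of 6 genes of this list and in 11.2% of all windows. The windows of *Hbb-bs* (chr7:103827879-103828178, minus strand) and *Alas2* (chrX:150547167-150547466, plus strand) are given with the matches in capitals, as genes whose libraries did not overlap between sets.
Hbb-bs: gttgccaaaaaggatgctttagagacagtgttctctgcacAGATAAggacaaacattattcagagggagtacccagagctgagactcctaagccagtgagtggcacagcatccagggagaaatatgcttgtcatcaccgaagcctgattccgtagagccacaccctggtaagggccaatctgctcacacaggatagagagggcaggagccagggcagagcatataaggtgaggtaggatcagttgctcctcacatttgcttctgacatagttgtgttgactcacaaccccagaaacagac
Alas2: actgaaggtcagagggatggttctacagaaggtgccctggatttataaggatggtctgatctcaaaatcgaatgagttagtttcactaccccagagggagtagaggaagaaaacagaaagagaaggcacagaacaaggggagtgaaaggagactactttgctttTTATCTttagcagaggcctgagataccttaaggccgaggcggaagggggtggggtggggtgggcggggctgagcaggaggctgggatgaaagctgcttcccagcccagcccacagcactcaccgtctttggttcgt

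Lens genes were higher in 12 of 21 cases and lower in none (background 21.8% and 19.0%), and 11 were DEGs (background 1.97%). The median was 1.90 (1.16 within B6 WT, 2.91 within *Mertk* -/-V1 and 0.48 without libraries 5 and 6). In 0 genes were the sets apart in both genotypes (background 10.2%). Leaving out replicate 6 of *Mertk* -/-V1 gave a lens median of 1.28 and leaving out replicate 4 of B6 WT 2.45. *Cryaa*, the alpha crystallin, had 34993, 34277 and 12452 in replicates 1 to 3 of B6 WT and 39281, 4376 and 10756 in replicates 4 to 6. For *Cryaa*, the *Mertk* -/-V1 values were 53575, 20841 and 56301 in replicates 1 to 3 and 16855, 12676 and 981 in replicates 4 to 6. Replicate 4 of B6 WT was as high as replicates 1 and 2, and the gene did not pass (log2 fold change 1.87 ± 0.76 (SE), adjusted p = 0.0652). *Crygc* passed (2.29, adjusted p = 0.0312), and the gamma crystallins are near-identical to one another.

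Skeletal muscle genes were higher in 7 of 12 cases and lower in none (background 21.8% and 19.0%). Their median was 1.64 (0.32 without libraries 5 and 6). *Acta1* had 4808, 5030 and 2329 in replicates 1 to 3 of B6 WT and 4749, 461 and 473 in replicates 4 to 6. For *Acta1*, the *Mertk* -/-V1 values were 3508, 2778 and 1303 in replicates 1 to 3 and 1090, 485 and 1211 in replicates 4 to 6, with replicate 4 of B6 WT again among the high libraries (log2 fold change 1.68 ± 0.55 (SE), adjusted p = 0.0298). *Myh13*, a myosin of extraocular muscle, had 230, 199 and 85.5 in replicates 1 to 3 of B6 WT and 167, 1.31 and 4.71 in replicates 4 to 6. For *Myh13*, the *Mertk* -/-V1 values were 105, 22.7 and 86.9 in replicates 1 to 3 and 3.62, 1.21 and 5.62 in replicates 4 to 6 (3.75, adjusted p = 0.0088).

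All 12 of 12 cell cycle genes were higher (background 21.8%), 8 of them DEGs (background 1.97%). Their median was 1.40 (1.64 within B6 WT, 1.24 within *Mertk* -/-V1 and 0.40 without libraries 5 and 6). *Mki67*, a marker of dividing cells, had 3373, 2145 and 1820 in replicates 1 to 3 of B6 WT and 1345, 678 and 383 in replicates 4 to 6. For *Mki67*, the *Mertk* -/-V1 values were 1467, 1782 and 2277 in replicates 1 to 3 and 1735, 470 and 528 in replicates 4 to 6 (log2 fold change 1.503 ± 0.36 (SE), adjusted p = 0.0097). *Birc5*, a mitotic regulator, had 474, 329 and 297 in replicates 1 to 3 of B6 WT and 228, 77.3 and 45.5 in replicates 4 to 6. For *Birc5*, the *Mertk* -/-V1 values were 288, 300 and 280 in replicates 1 to 3 and 202, 69.2 and 73.1 in replicates 4 to 6, without overlap (1.72, adjusted p = 0.00767). Replicates 5 and 6 were lowest in both genotypes.

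A group of mitochondrially encoded genes also separated the sets when libraries 5 and 6 were left out. The mitochondrial genome encodes 13 proteins of the respiratory chain and ATP synthase. Of these genes 6 were lower (background 19.0%) and 0 higher, the 6 without overlap in either genotype (background 8.72%). *mt-Nd4l*, a subunit of complex I (chrM:9877-10173), had 191, 195 and 194 in replicates 1 to 3 of B6 WT and 1162, 619 and 735 in replicates 4 to 6. For *mt-Nd4l*, the *Mertk* -/-V1 values were 155, 219 and 179 in replicates 1 to 3 and 678, 326 and 469 in replicates 4 to 6 (log2 fold change -1.71 ± 0.21 (SE), adjusted p = 0.00492). Replicate 4 was the highest of replicates 4 to 6 in both genotypes, whereas for the summed rod genes it was the lowest of them. *mt-Atp8*, a subunit of ATP synthase (chrM:7766-7969), had 198, 159 and 252 in replicates 1 to 3 of B6 WT and 1286, 797 and 992 in replicates 4 to 6. For *mt-Atp8*, the *Mertk* -/-V1 values were 265, 227 and 266 in replicates 1 to 3 and 606, 588 and 912 in replicates 4 to 6 (log2 fold change -1.89 ± 0.20 (SE), adjusted p = 0.00247). *mt-Co2*, of cytochrome oxidase (chrM:7013-7696), had 1837, 1855 and 2277 in replicates 1 to 3 of B6 WT and 9456, 4651 and 6307 in replicates 4 to 6. For *mt-Co2*, the *Mertk* -/-V1 values were 1917, 2363 and 1802 in replicates 1 to 3 and 5344, 3094 and 4515 in replicates 4 to 6 (log2 fold change -1.39 ± 0.20 (SE), adjusted p = 0.00672). *mt-Atp6* (-1.32), *mt-Co3* (-1.22) and *mt-Nd3* (-0.97) were lower by less.

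The other 7 genes of the same molecule gave -0.10 to 0.04 and did not pass. *mt-Nd4*, which lies beside and partly over *mt-Nd4l*, had 81413, 80860 and 87214 in replicates 1 to 3 of B6 WT and 104888, 76604 and 95344 in replicates 4 to 6. For *mt-Nd4*, the *Mertk* -/-V1 values were 81287, 77331 and 80977 in replicates 1 to 3 and 90846, 82108 and 65960 in replicates 4 to 6, and the sets overlapped (log2 fold change -0.06 ± 0.13 (SE), adjusted p = 0.736). *mt-Nd1* had 119874, 121204 and 132218 in replicates 1 to 3 of B6 WT and 156087, 114864 and 143531 in replicates 4 to 6. For *mt-Nd1*, the *Mertk* -/-V1 values were 129324, 126092 and 121364 in replicates 1 to 3 and 136953, 136363 and 108883 in replicates 4 to 6 (log2 fold change -0.08 ± 0.15 (SE), adjusted p = 0.699). *mt-Co1*, the most abundant, gave a log2 fold change of 0.02. The 6 genes that were lower are annotated at 204 to 784 bases and lay at 155 to 9456 normalised counts. Of the 7 that did not pass, 6 are 957 to 1824 bases long and the exception, *mt-Nd6*, is 519, and all 7 lay at 33998 to 427597 normalised counts.

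Without libraries 5 and 6, *mt-Nd4l* was still lower (-2.24, adjusted p = 0.00537), as were *mt-Co2* (-1.83, adjusted p = 0.0147), *mt-Atp6* (-1.70, adjusted p = 0.0147) and *mt-Co3* (-1.59, adjusted p = 0.0231), while *mt-Atp8* gave -1.97, adjusted p = 0.0669. Of the 16 genes that passed in that fit, 4 were mitochondrially encoded and 9 annotated as pseudogenes, and the other 3 were the small RNA genes *Rn7sk*, the 1 that was higher, and *Gm23119*, and *Neurod2*. *Neurod2*, a transcription factor of neurons, had 9.33, 12.9 and 15.6 in replicates 1 to 3 of B6 WT and 72.2, 101 and 78.5 in replicates 4 to 6. For *Neurod2*, the *Mertk* -/-V1 values were 18.5, 16.1 and 17.4 in replicates 1 to 3 and 79.7, 357 and 208 in replicates 4 to 6, without overlap in either genotype (log2 fold change -2.98 ± 0.32 (SE), adjusted p = 0.00247). It gave -2.30, adjusted p = 0.027 without libraries 5 and 6 and -1.80, adjusted p = 0.0566 with the rod level as a covariate. With the rod level as a covariate, the 13 genes that passed were 5 mitochondrially encoded genes and 8 pseudogenes, all lower, with *mt-Nd4l* at -2.43, adjusted p = 0.00101. Within B6 WT, the 4 DEGs were *mt-Atp8* and 3 pseudogenes, *Gm10222*, *Gm28439* and *Gm10925*, at chr1:24611535-24614651. A copy of mitochondrial sequence lies in that region of the mouse genome, so reads of these genes and of the mitochondrial genes may not be separable and their counts are uncertain.

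**Figure D5:**
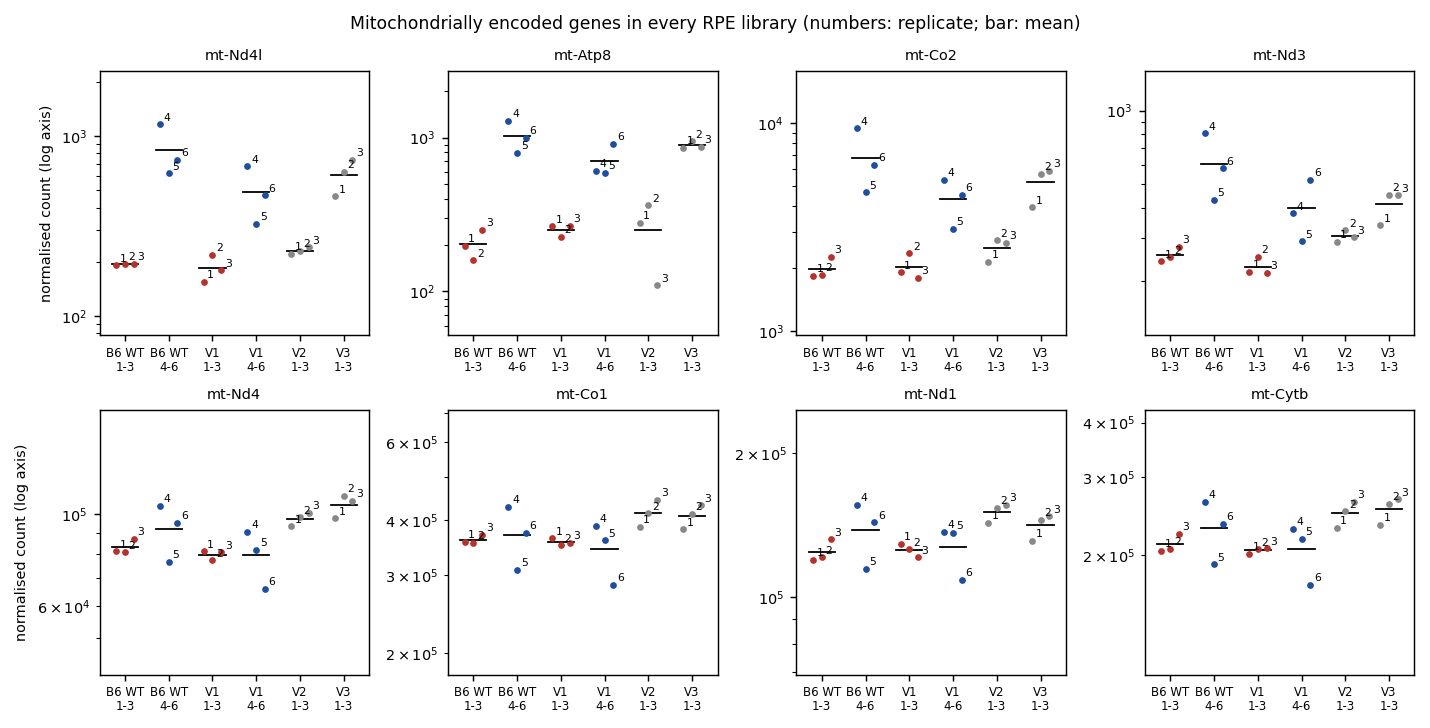
Normalised counts (log axes) of 8 mitochondrially encoded genes in the 18 RPE libraries, each point marked with its replicate number and bars at group means. In the upper row every blue library (replicates 4 to 6) lay above every red one (replicates 1 to 3) of its genotype, and in the lower row they overlapped; grey libraries are *Mertk* -/-V2 and *Mertk* -/-V3, not tested.

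Sterol biosynthesis genes were higher in 13 of 15 cases and lower in none (background 21.8% higher). In all 13 the sets were apart in both genotypes (background 10.2%). The median was 0.60 (0.03 when scaled to the RPE list, 0.39 without libraries 5 and 6). *Hmgcs1*, at the start of the pathway, had 6162, 5722 and 6511 in replicates 1 to 3 of B6 WT and 5543, 4428 and 4191 in replicates 4 to 6. For *Hmgcs1*, the *Mertk* -/-V1 values were 11378, 8540 and 10304 in replicates 1 to 3 and 6446, 6279 and 6717 in replicates 4 to 6 (log2 fold change 0.51 ± 0.10 (SE), adjusted p = 0.00725; -0.06 when scaled to the RPE list). *Mvd*, which makes isopentenyl diphosphate, had 907, 1005 and 1076 in replicates 1 to 3 of B6 WT and 699, 451 and 543 in replicates 4 to 6. For *Mvd*, the *Mertk* -/-V1 values were 1606, 1386 and 1565 in replicates 1 to 3 and 1001, 759 and 732 in replicates 4 to 6 (0.86, adjusted p = 0.00581). Targets of PPAR and genes of fatty acid oxidation were higher in 7 of 10 cases (background 21.8%). Their median was 0.43 (-0.13 when scaled to the RPE list), with *Acadl*, a dehydrogenase of fatty acid oxidation, at 0.61, adjusted p = 0.0104.

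For oxidative phosphorylation, ribosomal proteins and histones the background was 21.8% higher and 19.0% lower. Subunits of oxidative phosphorylation were higher in 45 of 75 cases and lower in 2. Their median was 0.28 (-0.28 when scaled to the RPE list), with *Cox5a* at 0.35, adjusted p = 0.0299 and -0.22 under that scaling. *Cox6a2*, the isoform of striated muscle, was higher (2.12, adjusted p = 0.0269). Cytosolic ribosomal proteins were higher in 72 of 85 cases and lower in 3 (median 0.55, -0.02 when scaled to the RPE list), and *Rpl13* had 11083, 9315 and 8893 in replicates 1 to 3 of B6 WT and 7896, 5165 and 4879 in replicates 4 to 6. For *Rpl13*, the *Mertk* -/-V1 values were 12590, 9643 and 9023 in replicates 1 to 3 and 6224, 5322 and 5654 in replicates 4 to 6 (log2 fold change 0.79 ± 0.13 (SE), adjusted p = 0.00724). *Rpl3l*, the muscle form of a ribosomal protein, gave 1.35, adjusted p = 0.0177. Replication-dependent histones, whose transcripts mostly lack a poly(A) tail, were higher in 11 of 25 cases and lower in 1 (median 0.54, -0.03 when scaled to the RPE list), with *Hist1h2bc* at 0.47, adjusted p = 0.00724 (-0.10 under that scaling) and *Hist3h2ba* at -1.16, adjusted p = 0.0229.

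Of 7 nuclear non-coding RNAs, 4 were lower (background 19.0%). These were *Miat* (-2.45, adjusted p = 0.00735), *Meg3*, *Rian* and *Mirg*, which neurons express, and the last 3 are from one imprinted cluster. *Malat1*, present in all cells, had 82975, 72886 and 80910 in replicates 1 to 3 of B6 WT and 62364, 68337 and 97052 in replicates 4 to 6. For *Malat1*, the *Mertk* -/-V1 values were 54622, 58629 and 99269 in replicates 1 to 3 and 90776, 58762 and 56100 in replicates 4 to 6, and did not pass (0.05, adjusted p = 0.839; -0.51 and past the threshold when scaled to the RPE list).

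Over all genes, the 10 lowest DEGs with a mean of at least 100 and sets apart in both genotypes included the 9 named here. *Vgf*, a neuropeptide precursor, had 8.39, 32.8 and 17.5 in replicates 1 to 3 of B6 WT and 51.8, 201 and 141 in replicates 4 to 6. For *Vgf*, the *Mertk* -/-V1 values were 24.1, 35.1 and 32.4 in replicates 1 to 3 and 112, 730 and 398 in replicates 4 to 6 (log2 fold change -3.02 ± 0.49 (SE), adjusted p = 0.00724). *Gpr26* (-2.96), the glycine receptor *Glra3* (-2.88), *Snhg11* (-2.81), *Galnt13* (-2.78), *Cntnap5a* (-2.73), *Gad1* (-2.73), *St8sia3* (-2.73) and the filament *Ina* (-2.72) followed. On the higher side stood the keratin *Krt16* (2.96) and the cornified envelope gene *Sprr1a* (2.93), then *Hbb-bt*, *Hba-a1*, *Hbb-bs*, the growth factor *Areg* (1.84), *Alas2*, *Birc5*, *Spc24* (1.71) and *Ccnb1* (1.69). *Krt16* had 371, 664 and 1177 in replicates 1 to 3 of B6 WT and 155, 101 and 84.8 in replicates 4 to 6. For *Krt16*, the *Mertk* -/-V1 values were 677, 1844 and 815 in replicates 1 to 3 and 276, 43.7 and 76.5 in replicates 4 to 6 (log2 fold change 2.96 ± 0.45 (SE), adjusted p = 0.00686).

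Within a genotype, the contrast passed for many genes in *Mertk* -/-V1 and for few in B6 WT. Both contrasts came from a fit of all 12 libraries with a shared estimate of the spread. The count of each genotype therefore also drew on the spread among libraries of the other. In *Mertk* -/-V1, 5416 genes passed the adjusted p and 1822 (9.69%) were DEGs, against 4 genes, all DEGs (0.0213%), in B6 WT, where 4885 had an unadjusted p under 0.05. The difference between genotypes was tested as an interaction, and 0 genes (0%) passed with limma (1249 at an unadjusted p under 0.05), 0 with edgeR and 4 with DESeq2. That count rested on replicate 4 of *Mertk* -/-V1, since without it 1506 genes passed the interaction (8.01%). This was the highest count with 1 library left out. Of those genes, 825 had the more positive fold in *Mertk* -/-V1 and 681 the more negative. The more positive included 10 of 19 RPE, 10 of 13 melanin, 6 of 10 PPAR and 4 of 21 endothelial genes. In these 4 lists none was the more negative. Of 16 hypoxia and glycolysis genes, 5 were the more negative and 1 the more positive. Of the rod, cone, erythroid and lens lists, 0 genes passed. The count within B6 WT also changed with replicate 4 and with the tool. It was 816 DEGs without replicate 4 of B6 WT, 920 without replicate 4 of *Mertk* -/-V1, and, with all libraries, 3 with edgeR and 602 with DESeq2. In *Mertk* -/-V1, 0 genes were DEGs when replicate 1, 2, 5 or 6 of that genotype was left out.

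Depth, retinal, RPE, blood and anterior eye genes all moved with the replicate sets, and the part of any one of them in another's difference was not tested. What the numbers 1 to 3 and 4 to 6 stood for (a day, a litter, a preparation or a sequencing run) cannot be told apart from the values.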

How the data were processed

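RPE RNA was sequenced by the authors as 150 bp paired reads, trimmed with btrim, aligned to GRCm38 with STAR and scaled with DESeq2. The program that counted reads on genes is not given in the sources used here. The deposited values are a signal per gene, reads divided by 1 size factor per library, and 100% of values came back as whole reads when multiplied by it. All columns were mapped to samples (0 unmapped).

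The main test was limma 3.58.1 (R 4.3.3, trended variance) on log2(value + 1) of genes with a mean of at least 10, with genotype and replicate set as terms and Benjamini-Hochberg adjustment, so the fold changes of low genes are understated. DEGs were genes past both 0.05 (adjusted p) and 2.38-fold. Alternatives used edgeR 4.0.16 and DESeq2 1.42.0 on recovered reads, other scalings, filters and left-out libraries. Genes were named by rule: *Mertk*, the first gene of each list, up to 3 further members (1 for lists outside retina, glia, choroid, RPE, stress and clock) with the largest called change and a mean of at least 50, all clock genes, and the 10 leading genes on each side with a mean of at least 100. Genes named beside these were added to show members that did not pass or that mark a cell type, after their values were seen. A few genes that the rule picks are not reported here, and list counts include them. The sets compared and the gene lists were chosen with earlier results of these data known. On simulated data, the fit recovered 100 of 100 genes changed by 1.5 and 100 of 100 changed by 2.5 on the log2 scale. It made 10 false calls among 18795 genes. Recovery at the replicate spread of the lists, such as an SD of 0.81 for rods and 1.4 for lens (log2 scale), was not tested. The labels call the replicates biological without saying how many mice each held.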

Additional observations from a re-analysis of the deposited data

Results flagged for a closer look

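Dixon's test (95% level) looked for a single library apart from the rest within 1 set of 6 libraries. It was run on the summed levels of 38 lists and on reads on genes, in each set. It found 6 in 78 tests, all of them list levels, where chance alone gives about 1 in 20, or 3.9. In replicates 1 to 3, cell cycle genes summed to 10675 normalised counts in replicate 1 of B6 WT against a median of 6453 in the others, mitochondrially encoded genes to 1104949 in replicate 3 of B6 WT against 1036491, and myelinating glia genes to 100630 in replicate 1 of *Mertk* -/-V1 against 40042. In replicates 4 to 6, lens genes summed to 279509 in replicate 4 of B6 WT against 74870, skeletal muscle genes to 19911 in the same library against 2014, and ganglion cell genes to 42177 in replicate 5 of *Mertk* -/-V1 against 6408. No list and no named gene moved in opposite directions in every library of the genotypes (0 of 209 checks, 38 of them of lists).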

How the results depend on the processing

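DEGs numbered 1752, and 1024 at a mean of at least 100, 2859 when scaled to the RPE list, 13 with the rod level as a covariate, 2737 without the libraries numbered 4, 15 without those numbered 5 and 6, and 7666 with no fold threshold. The share of DEGs that were higher was 21.2%, and 1.96% when scaled to the RPE list, 32.9% after quantile normalization, 32.3% without libraries 4, 0% with the rod covariate and 6.67% without libraries 5 and 6. Within B6 WT, DESeq2 gave 602 and leaving out libraries 4 gave 2084. Within *Mertk* -/-V1, leaving out libraries 4 gave 3312. For the interaction, DESeq2 gave 4 and leaving out libraries 4 gave 1129. With the replicate number as a replicate block there were 1702 DEGs. Same-numbered libraries deviated together for numbers 4 and 5 only (correlations -0.11 to 0.57 over the 6 numbers), so the numbers were not taken as pairs for all libraries, and what the libraries numbered 4 or 5 share was not tested. Leaving out 1 library gave 1387 (without replicate 5 of *Mertk* -/-V1) to 2239 DEGs (without replicate 4), 0 to 920 within B6 WT, 0 to 3166 within *Mertk* -/-V1 and 0 to 1506 for the interaction.

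List medians in other settings were as follows, and the cause was not tested. With the rod covariate they were -0.038 for rods, 0.19 cones, 0.029 shared photoreceptor genes, -0.44 Müller glia, 0.15 RPE identity, 0.17 *Per* arm and 0.033 *Arntl* arm. The covariate is the mean of the rod genes themselves, so their average set difference was removed by construction. Without libraries 5 and 6 they were -0.79 rods, -0.58 cones, -0.57 Müller glia, 0.22 RPE identity, 0.056 *Per* arm, -0.0048 *Arntl* arm and 0.032 pericytes. Scaled to the RPE list they were -1.54 Müller glia, -0.95 endothelium, 0.078 RPE identity, -0.033 immediate early genes, -0.36 heat shock, -0.66 *Per* arm, -0.43 *Arntl* arm, -0.13 melanocytes, -0.19 melanin, -0.43 integrated stress response, -0.25 endoplasmic reticulum stress, -0.096 NRF2, -0.19 interferon, -0.13 PPAR, -0.28 oxidative phosphorylation, -0.018 ribosomal proteins and -0.026 histones. Quantile normalization gave 0.018 for heat shock and -0.0048 for the *Arntl* arm. Within B6 WT the medians were -0.71 for endothelium, 0.33 RPE identity and -0.023 *Arntl* arm, and within *Mertk* -/-V1 -0.021 for endothelium and 0.072 pericytes. Leaving out 1 library gave -1.08 to -0.82 (Müller glia), 0.50 to 0.75 (RPE identity and visual cycle), -0.48 to -0.24 (choroidal endothelium), 0.12 to 0.17 (*Arntl* arm), -0.14 to -0.036 (*Per* arm), -2.16 to -1.56 (cones), 0.19 to 0.26 (heat shock), 0.39 to 0.60 (immediate early genes), -2.28 to -1.74 (rods).

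Over 145 named genes and all settings, 3232 of 3760 values kept direction and side of the threshold, 450 no longer passed, 44 newly passed and 34 changed sign. Those scaled to the RPE list were *Bhlhe40* -0.13, *Clock* -0.43, *Cox5a* -0.22, *Csf1r* -0.037, *Dnajc3* -0.12, *Glul* -0.56, *Gpr143* -0.029, *Hist1h2bc* -0.096, *Hmgcs1* -0.060, *Hspa5* -0.24, *Malat1* -0.51, *Npas2* -0.033, *Sdf2l1* -0.11, *Slc24a5* -0.034, *Stat3* -0.25, *Tef* -0.56, *Tyr* -0.13, *Vegfa* -0.31, *Wee1* -0.27. With the rod covariate they were *Ankrd37* 0.27, *Cnga3* 0.20, *Cry1* 0.033, *Cry2* 0.074, *Fgf2* 0.019, *Hist3h2ba* 0.14, *Hk2* 0.068, *Itgam* -0.24, *Kit* -0.15, *Notch3* -0.060, *Npas2* -0.16, *Opn1sw* 0.24, *Osgin1* -0.031. *Npas2* gave -0.0048 without libraries 5 and 6, and *Glul* -0.34 after quantile normalization.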

Other observations

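Both groups below were chosen after their values were seen, and no test is given for them as groups. Genes of stratified surface epithelium, such as cornea and conjunctiva, had a median log2 fold change of 1.38. *Krt5*, a keratin of basal cells, had 88643, 64244 and 68667 in replicates 1 to 3 of B6 WT and 50500, 35592 and 20018 in replicates 4 to 6. For *Krt5*, the *Mertk* -/-V1 values were 107804, 72702 and 70680 in replicates 1 to 3 and 56390, 20295 and 34268 in replicates 4 to 6. Replicates 1 to 3 were above replicates 4 to 6 in both genotypes. Precursors of neuropeptides and dense-core granule proteins had a median of -2.46, and *Pcsk2*, which cleaves such precursors, had 25.2, 72.7 and 69 in replicates 1 to 3 of B6 WT and 70.3, 284 and 226 in replicates 4 to 6. For *Pcsk2*, the *Mertk* -/-V1 values were 76.2, 64.5 and 45 in replicates 1 to 3 and 147, 1124 and 692 in replicates 4 to 6.

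The libraries of *Mertk* -/-V2 and *Mertk* -/-V3 entered only an alternative fit of all 18 RPE libraries, which gave 1742 DEGs between the replicate sets. *mt-Nd4l* lay at 221 to 240 normalised counts in *Mertk* -/-V2, near replicates 1 to 3 of the other genotypes, and at 462 to 737 in *Mertk* -/-V3, within the range of replicates 4 to 6. Their reads on genes were 29522487 to 33169749 and 16476097 to 21573517.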
